A study of Mus musculus with 3 samples.

Results

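Glucose supplies most of the energy of neutrophils and of the granulocytic myeloid-derived suppressor cells (G-MDSCs) that resemble them, and the 32 genes described here carry that glucose through the cell. They encode glucose and lactate carriers, the glycolytic enzymes by isoform, the enzymes that build and break glycogen, and the hypoxia-inducible factor HIF-1α with some of its targets. The genes were listed by name for these roles and not by their values, though with earlier results of these data known. All 32 were found among the 26655 genes of the data.

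In brief, glucose enters through the transporters, is trapped as glucose 6-phosphate by a hexokinase, is committed at the phosphofructokinase step and is split into trioses, whose conversion to pyruvate yields ATP. Lactate dehydrogenase and a monocarboxylate transporter then remove the pyruvate as lactate, and glycogen serves as a store that neutrophils can draw on where glucose or oxygen is scarce. HIF-1α is destroyed in the presence of oxygen after prolyl hydroxylases of the Egln family modify it, and in hypoxia it binds promoters of many glycolytic genes.

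The data were RNA sequencing of G-MDSCs from peripheral blood of C57BL/6J mice, in 3 libraries. The first came from normal mice without a tumor, the second from mice that had carried a B16F10 melanoma, a mouse skin tumor line grown under the skin, for 2 weeks (2Ws), and the third from mice with the tumor for 3 weeks (3Ws). The labels call the cells of all 3 libraries CD11b+Gr1+, and the methods describe capture on magnetic columns with an antibody to Ly6G. The methods give an age of 8 to 10 weeks and female mice for tumor implantation, and the number of mice behind a library was not given in the sources used here. One field of the labels gives the tumor time in months and another in weeks, and weeks are used as in the methods. Each condition had 1 library, so no difference below has a replicate check, and the intervals given are 95% exact binomial counting intervals that leave out differences between mice and between preparations.

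Several features of the libraries bear on every value. Depth was even, at 17325747, 16549246 and 17075753 reads in normal mice, 2Ws and 3Ws. The 2Ws library stood apart from the others in its sex-linked transcripts. Xist, the RNA that silences an X chromosome in females, was at 0.00966, 24.7 and 0 FPKM, and Ddx3y, a gene of the Y chromosome, was at 19.9, 0 and 23.1 FPKM, so the libraries did not come from mice of 1 sex, although the methods name female mice. Sex and tumor time therefore cannot be told apart in either comparison with the 2Ws library, whereas the comparison of 3Ws with normal mice leaves that library out. Among 13 neutrophil identity genes, all 13 were measured and summed to 42702, 48747 and 68179 FPKM, of which S100a8 and S100a9 were 10.5%, 12.1% and 16.2% of all FPKM. Of 7 melanoma markers, 4 had a value, and these summed to 5.23, 5.49 and 5.22 FPKM. Within that sum Pmel read 1.33, 1.53 and 2.66 FPKM, 1.99-fold higher at 3Ws than in normal mice (1.42 to 2.83). Mitf went the other way at 3.89, 3.96 and 2.52 FPKM. Tyrp1 had 2 reads, at 3Ws only, and Sox10 was at 0 in all libraries. In bulk RNA, fewer cells of a type and less RNA per cell cannot be told apart.

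Levels are given as FPKM (fragments scaled to exon length and to library depth, here per Ensembl gene), always in the order normal mice, 2Ws and 3Ws. Ratios of FPKM are given as folds, and log2 ratios were formed after adding 1 FPKM to each value, which understates the change of low genes. A gene was compared where at least 1 of the 2 libraries reached 1 FPKM, and it was counted as higher or lower from a 2-fold ratio on that scale.

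The 32 genes summed to 1977, 1900 and 2431 FPKM, or 0.628%, 0.608% and 0.757% of all FPKM. Blood G-MDSCs at 3Ws thus held the largest summed level. Per length of exon, the most abundant members in normal mice were Pkm at 240.2, Gapdh at 234 and Pygl at 198 FPKM, and the least abundant were Pfkm at 0.722 and Slc16a1 at 0.535 FPKM. The plot of levels by role shows how far isoforms of a family lay from each other in every library.

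**Figure D1:**
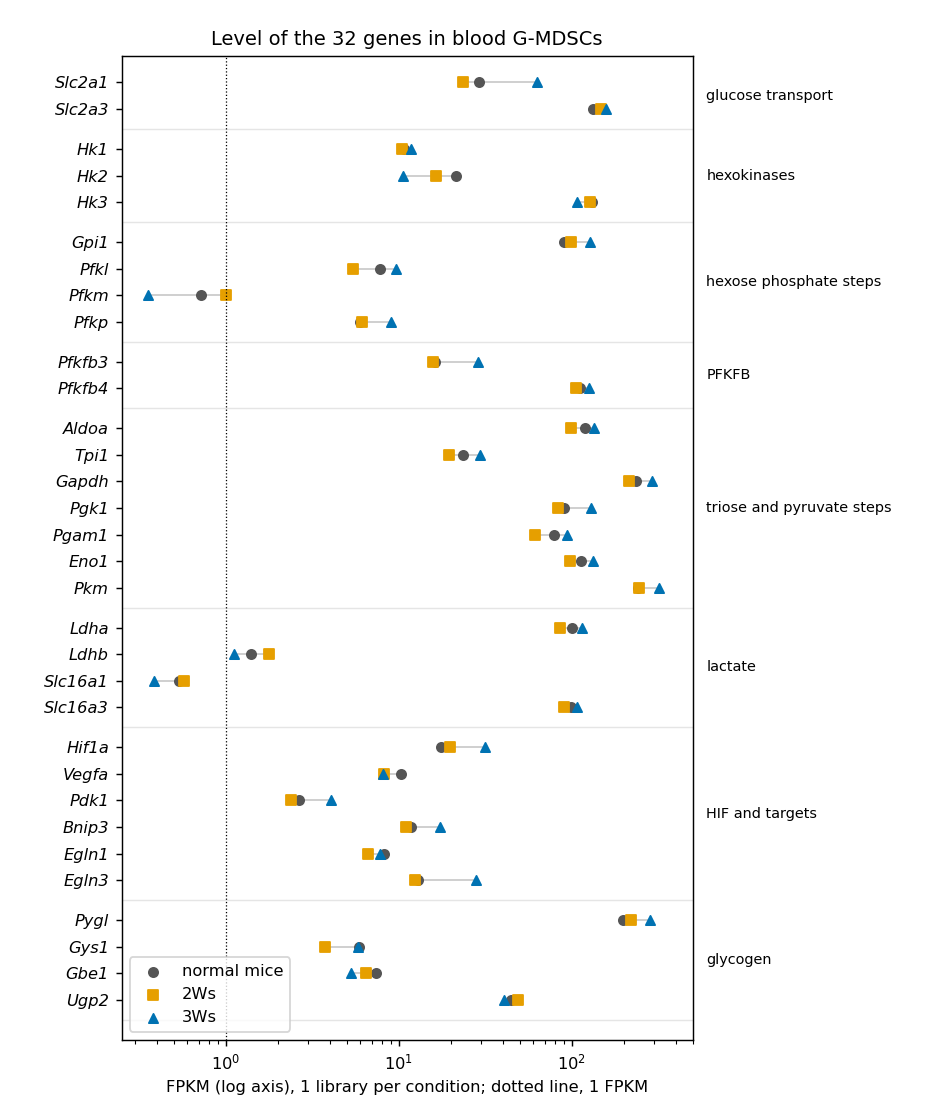
FPKM of each of the 32 genes on a log axis, with 1 point per library (circle, normal mice; square, 2Ws; triangle, 3Ws), grouped by role. The 3Ws points of Slc2a1, Pfkfb3, Hif1a and Egln3 lie to the right of their own points for normal mice and 2Ws. That of Hk2 lies to the left of its own, and Slc16a1 lies under 1 FPKM in all 3 libraries.

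At 2Ws, none of the members had moved from normal mice by 2-fold. Of 31 compared, 0 were at least 2-fold higher, where 1.29% of the 11269 genes compared were, and 0 were at least 2-fold lower, where 1.22% were. With a 1.5-fold ratio on the same scale the members again gave 0 higher and 0 lower, against 3.51% and 3.32% of all genes. Gys1 was 1.57-fold lower without the added 1 FPKM but had a log2 ratio of −0.54 with it, short of that count. Their ratios lay above 1 in 9 members and below 1 in 22, where 50.1% of all genes lay above 1, and their median log2 ratio was −0.11 against 0.0004 for all genes. Relative to Actb, which was at 2694, 2519 and 2538 FPKM, the split became 15 above and 16 below, with 66.2% of all genes above 1.

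At 3Ws the picture differed from normal mice. Of 30 members compared, 2 were at least 2-fold higher (Slc2a1 and Egln3), where 2.60% of the 11103 genes compared were, and 0 were at least 2-fold lower, where 7.89% were. At the 1.5-fold ratio 4 members were higher (Slc2a1, Egln3, Hif1a and Pfkfb3), where 6.43% of all genes were, and only Hk2 was lower, where 23.6% were. Without the added 1 FPKM, Pfkp and Pdk1 were also higher by 1.53-fold and 1.51-fold. The members' ratios lay above 1 in 22 and below 1 in 8, whereas 29.8% of all genes lay above 1. Their median log2 ratio was 0.24, against −0.24 for all genes. Most genes of the 3Ws library thus read lower than in normal mice while most of these members read higher. The 13 neutrophil identity genes also read mostly higher, 12 above 1 and 1 below, with a median log2 ratio of 0.60. At the 1.5-fold ratio 8 of the 13 were higher and 0 lower. The 4 erythroid markers compared all lay above 1. All 12 monocyte and macrophage markers compared lay below 1, as did 9 of 10 B cell markers and all 9 platelet markers compared. The part of cell composition in the members' ratios was not tested. Genes that reached 1 FPKM in each of the 2 libraries had a median log2 ratio of −0.18, and relative to that shift the members' median was 0.42, with 26 above and 4 below, where 45.2% of all genes lay above 1 and their median was −0.06.

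Against 2Ws, the 3Ws library gave the same 2 members at least 2-fold higher of 31 compared, where 2.00% of 11119 genes were, and 0 lower, where 7.37% were. At the 1.5-fold ratio 8 members were higher (Slc2a1, Egln3, Pfkfb3, Pfkl, Hif1a, Pgk1, Bnip3 and Pgam1), where 5.08% of all genes were, and Hk2 was lower, where 20.7% were. Without the added 1 FPKM, Pdk1, Gys1 and Tpi1 were also higher by 1.69-fold, 1.57-fold and 1.51-fold. On that scale Pfkm and Ldhb, each with few reads, were lower by 2.81-fold and 1.58-fold. Above 1 lay 24 members and below 1 lay 7, against 28.0% of all genes above 1. The median log2 ratio was 0.41 for the members and −0.21 for all genes, and relative to the shift of −0.16 it was 0.58. The 3 comparisons share libraries, so they are not independent of each other.

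**Figure D2:**
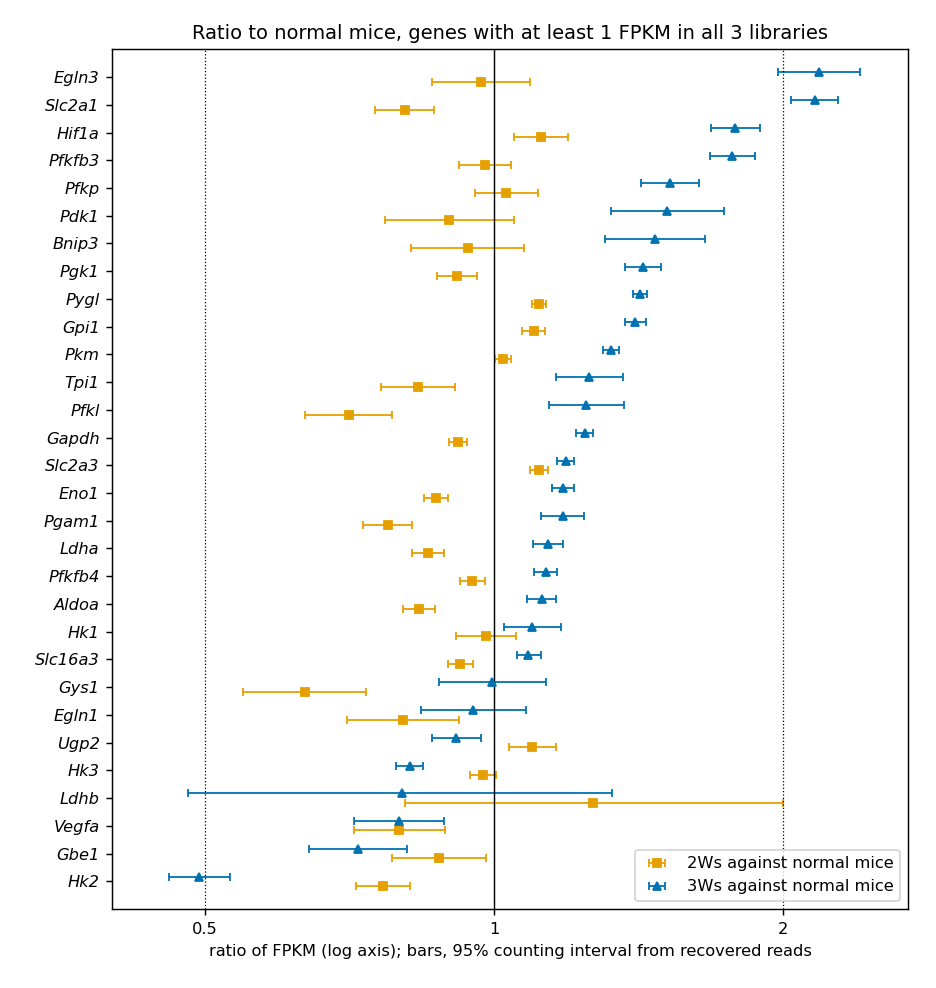
Ratio of FPKM to normal mice on a log axis for the 30 members with at least 1 FPKM in all libraries, at 2Ws (square) and 3Ws (triangle), with bars for the 95% counting interval. Only Egln3 and Slc2a1 pass 2 at 3Ws, Hk2 lies at 0.493, and no 2Ws point reaches 2 or 0.5.

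The promoters of the members that differed most from normal mice at 3Ws are shown first, because HIF-1α binds the core letters ACGTG or GCGTG and the list holds HIF-1α, its regulators and its targets. Sequences are those before the start site in RefSeq (GRCm38.p6), 5′ to 3′ on the gene's strand, and capitals mark ACGTG or GCGTG on either strand, so that CACGT and CACGC are the same letters read from the other strand. The palindrome CACGTG, the E-box that Myc and other factors bind, holds the motif on both strands. Ldha is added because its promoter is a textbook target of HIF-1α. Bases that GENCODE places in an exon are left out, which shortens the Slc2a1 window from 250 to 216 bases and that of Pfkfb3 to 239. Pfkfb3 has a further start site, whose window lies mostly in an exon and is not shown.
Slc2a1, chr4:119108495-119108710, plus strand: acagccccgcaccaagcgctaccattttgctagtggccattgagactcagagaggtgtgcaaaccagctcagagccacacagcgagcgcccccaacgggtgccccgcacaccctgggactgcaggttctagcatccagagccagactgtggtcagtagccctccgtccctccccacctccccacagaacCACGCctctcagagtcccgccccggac
Hk2, chr6:82774455-82774704, minus strand: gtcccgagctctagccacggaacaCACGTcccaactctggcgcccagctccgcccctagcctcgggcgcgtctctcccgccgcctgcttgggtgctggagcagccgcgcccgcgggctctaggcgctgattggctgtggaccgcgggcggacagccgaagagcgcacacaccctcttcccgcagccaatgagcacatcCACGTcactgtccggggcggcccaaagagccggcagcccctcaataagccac
Hif1a, chr12:73907617-73907866, plus strand: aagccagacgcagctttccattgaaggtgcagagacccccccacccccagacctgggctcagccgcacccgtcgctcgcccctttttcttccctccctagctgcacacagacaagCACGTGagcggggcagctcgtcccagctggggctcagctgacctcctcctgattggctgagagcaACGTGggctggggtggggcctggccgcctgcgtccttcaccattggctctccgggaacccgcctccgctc
Egln3, chr12:54203875-54204124, minus strand: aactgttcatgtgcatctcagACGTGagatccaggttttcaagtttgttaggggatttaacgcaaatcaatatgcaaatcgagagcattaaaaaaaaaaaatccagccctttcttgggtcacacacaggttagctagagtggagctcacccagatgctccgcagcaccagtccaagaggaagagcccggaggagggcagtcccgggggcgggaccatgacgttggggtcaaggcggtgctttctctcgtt
Pfkfb3, chr2:11502102-11502340, minus strand: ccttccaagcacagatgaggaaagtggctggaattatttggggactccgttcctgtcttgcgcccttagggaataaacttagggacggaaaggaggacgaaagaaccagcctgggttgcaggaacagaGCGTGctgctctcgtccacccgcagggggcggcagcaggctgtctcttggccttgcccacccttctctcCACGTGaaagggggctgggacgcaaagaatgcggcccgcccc
Ldha, chr7:46845554-46845803, plus strand: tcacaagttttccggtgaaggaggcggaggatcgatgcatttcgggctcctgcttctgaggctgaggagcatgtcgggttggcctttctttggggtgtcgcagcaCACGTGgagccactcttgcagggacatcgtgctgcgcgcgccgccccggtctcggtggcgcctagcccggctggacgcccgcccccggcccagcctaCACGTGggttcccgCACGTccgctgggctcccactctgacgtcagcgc

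The motif stood at −61 in the Slc2a1 promoter, counted from the start site, and another at −36 ran into the exon and is not marked. Hk2, the member that was lower, carried it at −226 and −52. Egln3 had it once, at −229, and Hif1a had a CACGTG at −135 and a further motif at −70. The Pfkfb3 window held a motif at −122 and a CACGTG at −53. Ldha carried a CACGTG at −145 and at −48 and a further motif at −34 in the window shown. A further Ldha start site, with its window at chr7:46846832-46847081, is not shown and had 1 motif, at −59. Promoters of members that were higher, lower or little different therefore held these letters.

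RefSeq promoters were found for 31 of the 32 members, with 45 start sites, and Slc2a3 was not matched. In the 250 bases before the start, 34 of the 45 (75.6%) held at least 1 motif, against 38.6% of 32851 promoters of all genes. Windows of Aldoa, Eno1 and Pfkm overlap, so some motifs are counted more than once. By gene, 27 of 31 members (87.1%) held a motif in at least 1 window, against 41.5% of all genes. Part of the list was chosen as HIF targets. The members' windows were richer in G and C, with a median of 61.6% against 52.4%. Among windows with at least 60% G and C, 23 of 26 member promoters (88.5%) and 63.8% of 9178 promoters held the motif. A match is a description of the letters and not a bound site.

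Slc2a1 (ENSMUSG00000028645, chr4:119108711-119137983, plus strand) encodes GLUT1, the widely expressed transporter of basal glucose uptake, and read 29.0, 23.4 and 62.6 FPKM from 1761, 1357 and 3745 reads. The 3Ws library was the highest and 2Ws the lowest. At 3Ws the gene was 2.16-fold higher than in normal mice (2.04 to 2.29) and 2.67-fold higher than at 2Ws (2.51 to 2.85), and the 2Ws level lay 1.24-fold under that of normal mice (1.15 to 1.33). Its log2 ratio of 1.08 exceeded that of 97.8% of all genes compared. Slc2a3 encodes GLUT3, a transporter of high affinity, and was the leading glucose transporter of the cells at 133, 148 and 158 FPKM, with 3Ws 1.19-fold above normal mice (1.16 to 1.21). GLUT1 thus took 11.1%, 9.02% and 20.9% of the FPKM of the Slc2a family, and GLUT3 took 50.7%, 57.1% and 52.7%. The remainder was nearly all Slc2a6, a transporter described in macrophages, at 37.4%, 33.1% and 25.9%.

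Some values moved beside Slc2a1. The antisense gene Gm12868 overlaps 105 bases of its exons and read 1.11, 0.869 and 4.35 FPKM. Whether the counting used strand is not known from the sources used here, and reads of this stretch cannot be assigned to one of the genes. Erythroid markers summed to 20.2, 8.59 and 97.1 FPKM, high and low in the same libraries as Slc2a1. Of the 10 listed, 9 had a value and 4 (the globins) passed 1 FPKM. All 4 were at least 2-fold higher at 3Ws than in normal mice, where 2.60% of all genes were. The other 5 stayed under 1 FPKM in every library and the erythroid factor Klf1 was at 0. Their part in the level of Slc2a1 was not tested.

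Of the hexokinases, which phosphorylate glucose on entry, Hk2 and Hk3 lay below normal mice at 3Ws and Hk1 lay above them. Hk2 (ENSMUSG00000000628, chr6:82725025-82774454, minus strand), the isoform of muscle and fat that insulin and HIF-1α induce, read 21.5, 16.5 and 10.6 FPKM. It was the lowest at 3Ws and intermediate at 2Ws, so that 3Ws was 2.03-fold below normal mice (1.89 to 2.18) and 1.55-fold below 2Ws (1.44 to 1.68). With 1 FPKM added the log2 ratio was −0.96, just short of the 2-fold count. Among all genes compared, 8.95% had a lower ratio. Hk3, the isoform of granulocytes, was the main hexokinase at 131, 128 and 107 FPKM, 80.2%, 82.5% and 82.7% of the family, and was 1.22-fold lower at 3Ws (1.19 to 1.27). For Hk3, 45.3% of all genes compared had a lower ratio. Hk1, the housekeeping isoform, read 10.7, 10.5 and 11.7 FPKM, 1.096-fold above normal mice at 3Ws (1.02 to 1.17). Its 2Ws ratio of 0.981 had an interval from 0.914 to 1.05 that includes 1. Summed, the hexokinases read 163, 155 and 129 FPKM. At 2Ws all 3 read below normal mice, but Hk1 and Hk3 lay above it relative to Actb.

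Monocyte and macrophage markers were lower beside Hk2. They summed to 851, 690 and 374 FPKM, 12 of 14 were compared, and 8 of those were at least 2-fold lower at 3Ws than in normal mice, with 2 under 1 FPKM in all libraries and none at 0. B cell markers summed to 368, 467 and 202 FPKM, with 8 of 10 at least 2-fold lower, and platelet markers to 124, 150 and 30.8 FPKM, with 5 of 9 lower. Beside each of these lists, 7.89% of all genes compared were at least 2-fold lower. Their part in the level of Hk2 was not tested.

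Fructose 6-phosphate is made by Gpi1 and committed to glycolysis by phosphofructokinase. Gpi1, glucose 6-phosphate isomerase, read 90.5, 99.5 and 127 FPKM and was 1.40-fold higher at 3Ws than in normal mice (1.37 to 1.44). Phosphofructokinase summed to 14.4, 12.6 and 19.1 FPKM over its isoforms. By FPKM, the liver-type isoform Pfkl (ENSMUSG00000020277) was the highest in normal mice and at 3Ws, with 7.74, 5.46 and 9.66 FPKM from 895, 603 and 1101 reads. It was lowest at 2Ws, 1.42-fold below normal mice (1.28 to 1.57), and 3Ws lay 1.77-fold above 2Ws (1.60 to 1.96). The platelet-type isoform Pfkp read 5.94, 6.12 and 9.06 FPKM and was 1.53-fold above normal mice at 3Ws (1.42 to 1.63), a log2 ratio of 0.54 after the added 1 FPKM. It had more reads than Pfkl in every library, 1379, 1357 and 2073, over 13401 bases of exon against 6675. The order of Pfkl and Pfkp by FPKM, and their shares, thus depend on these exon lengths. Pfkp overlaps Pitrm1 on the opposite strand over 748 bases. The muscle-type isoform Pfkm gave 42, 55 and 20 reads, at 0.722, 1.00 and 0.356 FPKM, and reached 1 FPKM at 2Ws only.

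The PFKFB enzymes set the level of fructose 2,6-bisphosphate, the strongest activator of phosphofructokinase. Pfkfb3 (ENSMUSG00000026773, chr2:11471433-11554077, minus strand), whose kinase activity far exceeds its phosphatase activity, read 16.1, 15.8 and 28.6 FPKM from 2113, 1975 and 3687 reads. Normal mice and 2Ws differed by less than counting error, with a ratio of 0.979 (0.920 to 1.04), and 3Ws was 1.77-fold above normal mice (1.68 to 1.87) and 1.81-fold above 2Ws (1.71 to 1.91). Pfkfb4, an isoform first described in testis and inducible by HIF-1α, was far more abundant at 111, 106 and 126 FPKM and was 1.13-fold higher at 3Ws (1.10 to 1.16). Pfkfb3 accordingly made up 12.5%, 12.8% and 18.3% of the family and Pfkfb4 86.7%, 86.0% and 80.8%.

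**Figure D3:**
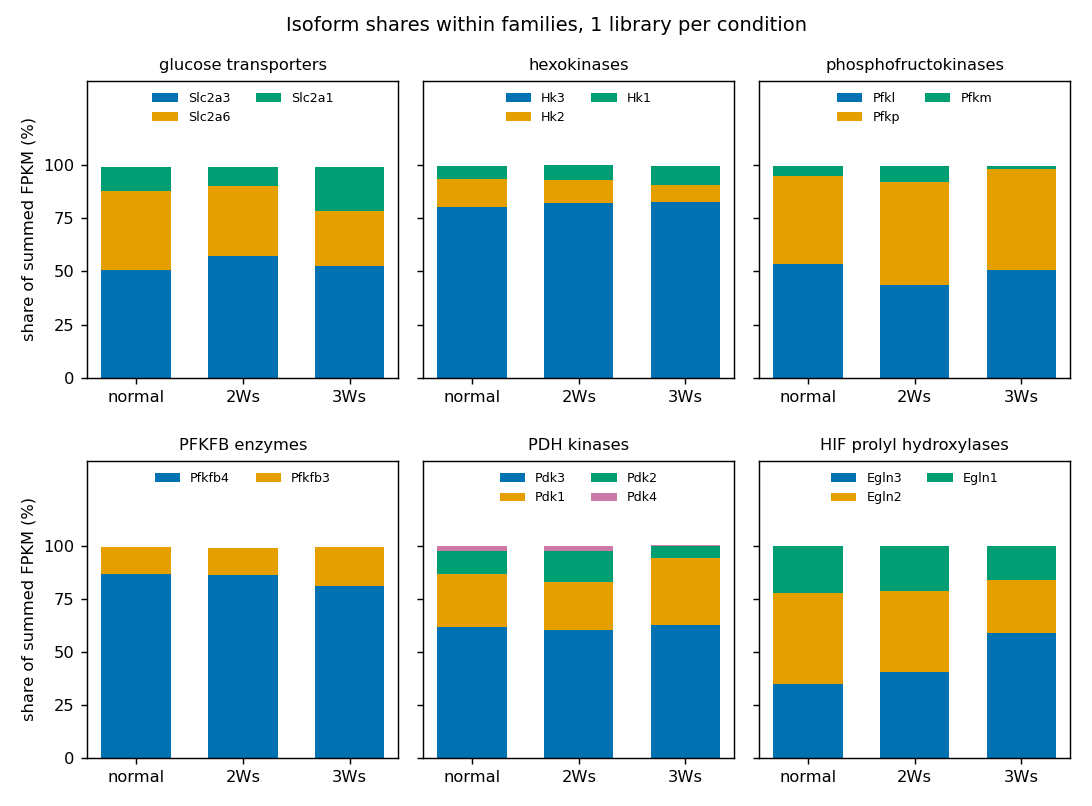
Share of each isoform in the summed FPKM of its family (%, stacked bars from 0, isoforms under 1% in every library left out), in normal mice, 2Ws and 3Ws, with 1 library each. Slc2a1 widens from 9.02% to 20.9% between 2Ws and 3Ws and Egln3 from 40.3% to 58.7%, while Hk3 takes 80.2% to 82.7% of the hexokinases.

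From the trioses to pyruvate, every step read higher at 3Ws than in normal mice, by less than 1.5-fold each. The 7 genes summed to 899, 821 and 1128 FPKM, with log2 ratios from 0.16 to 0.51 and a median of 0.31, and all 7 stayed above 1 under the 3 other scalings. At 2Ws, 6 of the 7 read lower than in normal mice and Pkm read 1.02-fold higher, with a median log2 ratio of −0.20.

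Phosphoglycerate kinase, which makes the first ATP of the pathway, differed most. Pgk1 read 90.6, 82.9 and 129 FPKM from 3522, 3079 and 4958 reads, and 3Ws was 1.43-fold above normal mice (1.37 to 1.49) and 1.56-fold above 2Ws (1.49 to 1.63). It lies on the X chromosome (chrX:106187100-106203699), so the sex-linked difference of the 2Ws library is to be kept beside its 2Ws value. Pyruvate kinase, Pkm, read 240.2, 245 and 318 FPKM and was 1.32-fold above normal mice at 3Ws (1.30 to 1.35). Gapdh, the dehydrogenase often used as a reference gene, read 234, 215 and 291 FPKM, so a value set relative to it would carry its own 1.24-fold difference (1.22 to 1.27). Enolase 1, Eno1, read 112.5, 97.9 and 133 FPKM and took 93.6%, 93.0% and 94.6% of the enolases.

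Aldolase A, Aldoa, was 99.2%, 99.6% and 99.5% of the aldolases. It read 119, 99.6 and 134 FPKM, 1.12-fold above normal mice at 3Ws (1.08 to 1.16). Phosphoglycerate mutase, Pgam1, read 79.2, 61.4 and 93.4 FPKM, and 3Ws was 1.52-fold above 2Ws (1.44 to 1.61) but 1.18-fold above normal mice (1.12 to 1.24). Triosephosphate isomerase, Tpi1, read 23.5, 19.6 and 29.5 FPKM. Several of these genes have near-identical copies with which the counting could have shared reads. Gapdh matched 177 genes at 90% identity or more over at least 200 bases, and the 74 of them with a value had reads of their own that summed to 5.16%, 6.75% and 4.94% of the Gapdh count. Pkm shares 767 bases with Gm49759 on the same strand, at 30.9, 34.9 and 52.1 FPKM. Aldoa and Pgk1 matched 6 and 4 copies, none with a value here.

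The lactate branch rested on 1 isoform at each step. Ldha, the dehydrogenase subunit that favors lactate, read 100.2, 85.5 and 114 FPKM, 98.6%, 98.0% and 99.0% of both subunits, with 3Ws 1.14-fold above normal mice (1.10 to 1.18) and 2Ws 1.17-fold below (1.13 to 1.22). Ldhb, the subunit that favors pyruvate, gave only 38, 46 and 30 reads, and all its ratios were within counting error. Slc16a3 encodes MCT4, the exporter of lactate in glycolytic cells, and read 98.4, 90.8 and 107 FPKM, 98.2%, 98.2% and 99.4% of the transporters Slc16a1, Slc16a3 and Slc16a7. Slc16a1, encoding MCT1, stayed under 1 FPKM in all libraries at 0.535, 0.573 and 0.384 FPKM and was not compared.

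HIF-1α itself and its feedback hydroxylase were among the members that stood out. Hif1a (ENSMUSG00000021109, chr12:73901375-73947530, plus strand) read 17.6, 19.7 and 31.4 FPKM from 1796, 1920 and 3160 reads. It was 1.79-fold above normal mice at 3Ws (1.68 to 1.89), 1.60-fold above 2Ws (1.51 to 1.69) and 1.12-fold above normal mice at 2Ws (1.05 to 1.19). It is a transcript level, and HIF-1α is controlled chiefly through the stability of the protein, which was not measured in these data. Hif1a overlaps Gm15283 on the opposite strand over 330 bases, with 0.687, 0.282 and 0.647 FPKM.

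Egln3 (ENSMUSG00000035105, chr12:54178981-54203860, minus strand) encodes PHD3, a prolyl hydroxylase of HIF-α that HIF induces in turn. It read 12.8, 12.4 and 28.0 FPKM from 592, 548 and 1273 reads. Normal mice and 2Ws gave nearly the same level, with a ratio of 0.969 (0.861 to 1.09), and 3Ws was 2.18-fold above normal mice (1.98 to 2.41) and 2.25-fold above 2Ws (2.04 to 2.49). Egln1, encoding PHD2, the main oxygen-dependent hydroxylase of HIF-1α, read 8.24, 6.62 and 7.84 FPKM, and its 3Ws ratio to normal mice of 0.951 (0.838 to 1.08) includes 1. With Egln2 at 15.98, 11.8 and 11.9 FPKM, Egln3 took 34.6%, 40.3% and 58.7% of the family, second to Egln2 in normal mice and first at 2Ws and 3Ws. At 2Ws Egln3 and Egln2 had 548 and 547 reads, over 2662 and 2800 bases of exon. Their order at 2Ws thus depends on the exon lengths.

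The other HIF targets of the list did not all read higher. Bnip3, a mitophagy receptor, read 11.8, 11.1 and 17.3 FPKM, 1.47-fold above normal mice (1.30 to 1.66) and 1.57-fold above 2Ws (1.38 to 1.77). Pdk1, a kinase that shuts pyruvate out of mitochondria, read 2.66, 2.39 and 4.04 FPKM from 359, 308 and 536 reads and was 1.51-fold above normal mice at 3Ws (1.32 to 1.74). By FPKM, Pdk3 led the PDK family with 61.7%, 60.4% and 62.3%, and Pdk1 took 25.1%, 22.6% and 31.8%. Pdk3 had fewer reads than Pdk1, 290, 271 and 346, over 2561 bases of exon against 7779, so this order depends on the exon lengths. Vegfa, the angiogenic factor and a classical HIF target, went the other way at 10.3, 8.16 and 8.16 FPKM, 1.26-fold below normal mice at 3Ws (1.13 to 1.40). Its log2 ratio of −0.30 lay near the median of all genes, −0.24, and 44.8% of all genes compared had a lower one.

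Of the 4 glycogen enzymes among the members, Pygl read higher at 3Ws than in normal mice and the other 3 read between 0.722 and 0.996 of the normal level. Pygl, the liver-type glycogen phosphorylase, was one of the most abundant members at 198, 221 and 282 FPKM from 23697, 25226 and 33155 reads, 97.3%, 97.2% and 98.9% of the phosphorylases. It was 1.42-fold above normal mice at 3Ws (1.40 to 1.44) and 1.11-fold above them at 2Ws (1.09 to 1.13). Gys1, the glycogen synthase, read 5.86, 3.72 and 5.83 FPKM from 486, 295 and 477 reads, lowest at 2Ws. The 2Ws level lay 1.57-fold under that of normal mice (1.36 to 1.82), and its 3Ws ratio of 0.996 (0.876 to 1.13) included 1. Gys1 overlaps Ruvbl2 on the opposite strand over 310 bases. The branching enzyme Gbe1 read 7.37, 6.46 and 5.32 FPKM, 1.39-fold lower at 3Ws (1.23 to 1.56). Ugp2, which makes the UDP-glucose that the synthase uses, read 44.6, 48.9 and 40.8 FPKM. Gys1 and Ugp2 lay above 1 at 3Ws against normal mice when centred on the median of genes that reached 1 FPKM in both libraries.

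The other genes of these pathways were summarised by list, and none of the 83 genes compared passed 2-fold at 2Ws against normal mice. Of all genes, 1.29% were higher and 1.22% lower in that comparison. At 3Ws against normal mice, 2.60% of all genes were at least 2-fold higher and 7.89% lower. At 3Ws the 13 other glycolysis genes compared (0 higher, 0 lower) had a median log2 ratio of −0.10, which turned positive on centring. Without the added 1 FPKM, Slc16a7 was 5.13-fold lower than in normal mice (3.76 to 7.145), at 1.22, 1.12 and 0.237 FPKM. Minpp1 was 2.405-fold lower on that scale (1.72 to 3.40), at 2.69, 2.08 and 1.12 FPKM. The 8 pentose phosphate genes gave 0 and 0 with a median of −0.32, although Pgls was 2.097-fold lower without the added 1 FPKM (1.745 to 2.529). Of the 8, 7 lay below 1, and G6pdx alone lay above it, at 1.38-fold (1.33 to 1.44). The 10 genes of pyruvate entry into mitochondria gave 0 and 0 with a median of −0.30. These medians lay on either side of that of all genes, −0.24, and all below the members' median of 0.24.

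Gluconeogenesis gave 0 higher and 2 lower of 4 compared, where 2.60% and 7.89% of all genes were, with a median log2 ratio of −1.07. Pck2 was not counted but was 2.435-fold lower without the added 1 FPKM (2.11 to 2.81). G6pc3, the glucose 6-phosphatase of neutrophils whose loss causes neutropenia in humans, read 2.98, 2.96 and 0.763 FPKM, 3.91-fold lower at 3Ws than in normal mice (2.58 to 6.09). Slc37a2, a sugar phosphate exchanger of macrophages, read 10.8, 9.12 and 3.95 FPKM, 2.73-fold lower (2.45 to 3.05). These genes were lower in the same library as the monocyte and macrophage markers, and the part of those cells in the difference was not tested.

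Other glycogen genes gave 0 higher and 1 lower of 14 compared, where 2.60% and 7.89% of all genes were, with a median log2 ratio of 0.03. The one lower was Gaa, the lysosomal glucosidase of glycogen, at 5.17, 4.60 and 1.91 FPKM, 2.704-fold below normal mice (2.25 to 3.27). Pygb, the brain-type phosphorylase, read 2.88, 3.57 and 1.12 FPKM and at 3Ws was 3.19-fold below 2Ws (2.51 to 4.08) and 2.57-fold below normal mice (2.01 to 3.31). With 1 FPKM added, the log2 ratios of Pygb were −1.11 and −0.87, so that it was counted against 2Ws and not against normal mice. At the 1.5-fold ratio, 3 of the list were higher at 3Ws, where 6.43% of all genes were, and 2 lower, where 23.6% were. The 3 higher genes were singled out after their values were seen. They were Gyg, the primer on which glycogen is built, at 32.7, 33.3 and 59.2 FPKM, and the glycogen-targeting subunits of protein phosphatase 1 Ppp1r3b, at 46.0, 50.3 and 77.7 FPKM, and Ppp1r3d, at 61.3, 63.7 and 106 FPKM. Such subunits are known to promote glycogen synthesis.

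The HIF system gave 0 and 0 of 9 compared, with a median log2 ratio of −0.32. Ratios lay above 1 in 3 of its genes and below 1 in 6, and the highest was Arnt at 1.54-fold (1.44 to 1.64). The other HIF targets gave 1 higher and 0 lower of 18 at 3Ws against normal mice, where 2.60% and 7.89% of all genes were. Their median log2 ratio was −0.03, which turned positive under each of the 3 other scalings. Ankrd37, a hypoxia-induced ankyrin repeat protein, read 3.75, 2.63 and 9.97 FPKM, 2.66-fold higher (2.104 to 3.38). Ndrg1 read 13.56, 10.8 and 6.69 FPKM, 2.03-fold lower (1.86 to 2.215). With 1 FPKM added its log2 ratio was −0.92, so it was not counted as lower. Against 2Ws, 3 of the 18 were higher, where 2.00% of all genes were. Beside Ankrd37 these were P4ha1, a collagen prolyl hydroxylase, at 6.76, 4.73 and 11.6 FPKM, and Mif. The latter, a cytokine gene with processed pseudogenes in the mouse, read 17.97, 11.8 and 24.9 FPKM. The wider target list thus did not share the median of Hif1a, Egln3 and the other 4 members of their role, which was 0.49.

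Of 6 glucose-responsive regulators, 0 were higher and 2 lower at 3Ws than in normal mice, where 2.60% and 7.89% of all genes were. Their median log2 ratio was −0.13, which turned positive on centring. Myc, a transcription factor of glycolytic and growth genes, read 6.61, 7.05 and 1.51 FPKM, 4.38-fold lower (3.37 to 5.76). Mlxipl, encoding the glucose sensor ChREBP, read 6.67, 6.47 and 2.104 FPKM, 3.17-fold lower (2.699 to 3.73).

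**Figure D4:**
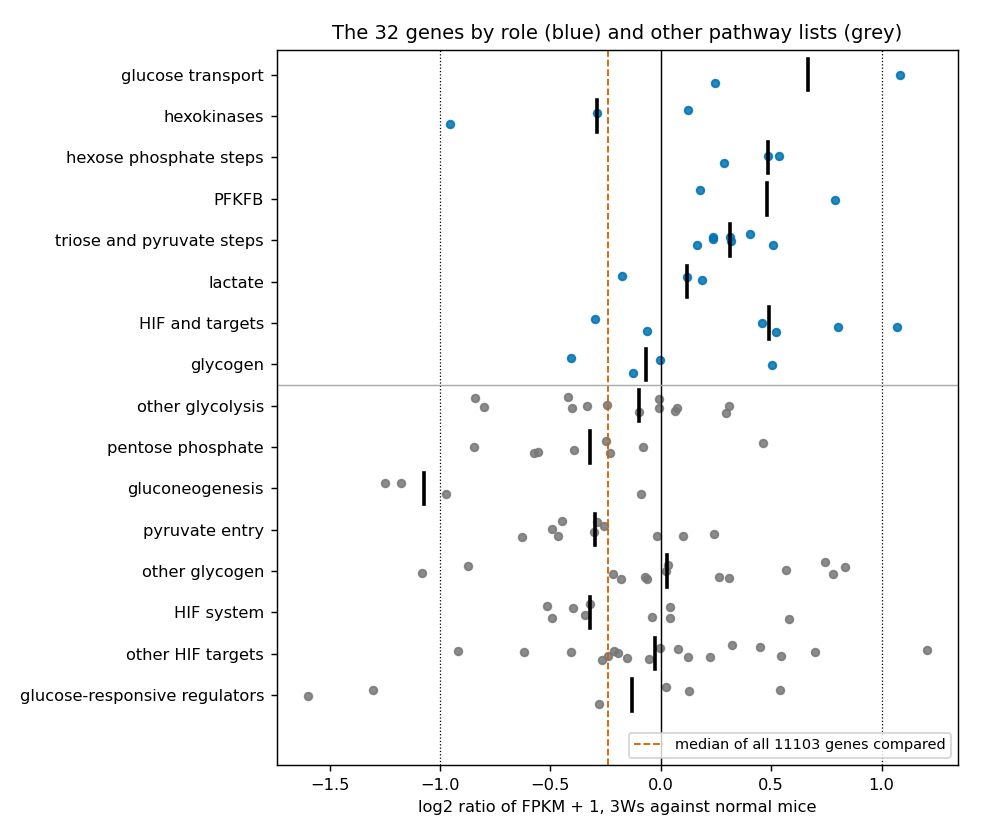
Log2 ratio of FPKM + 1 at 3Ws against normal mice for each gene compared, with the members by role in blue and the other pathway lists in grey, black bars for list medians, dotted lines at 2-fold and a dashed line for the median of all genes (−0.24). The 7 triose and pyruvate genes all lie between 0.16 and 0.51, and the 4 gluconeogenesis genes have a median of −1.07.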

How the data were processed

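RNA of G-MDSCs from blood was sequenced in 1 library for each of normal mice, 2Ws and 3Ws. Per the methods and the submitters' processing notes, the authors aligned reads to GRCm38 with HISAT2 2.1.0 on an index built with Bowtie2 2.2.3, and deposited FPKM for each Ensembl gene. The counter, the annotation and the use of strand were not given in the sources used here. The title of the normal sample is numbered 1 and its column 2, and no other normal sample was given.

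Genes were named through GENCODE M21 (26588 of 26655). To recover reads, FPKM was multiplied by exon length and by the library total that made the products whole: 20743 of 23378 genes above 0 (88.7%), and 29 of 32 members, gave whole reads within 0.001 in all libraries, and Aldoa, Pgam1 and Pfkm were rounded. Recovered reads sum to 105.8%, 105.9% and 105.8% of the totals. Exon length is the union over transcript models, so FPKM of genes with retained-intron models may read low. Ratios carry exact 95% Clopper-Pearson intervals from these reads, and no difference reported rests on a test between conditions. The 3 comparisons used log2 of FPKM plus 1, a minimum of 1 FPKM in 1 of the 2 libraries, and a 2-fold rule.

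The members and lists were chosen with earlier results of these data known. Members named in full are those at least 1.5-fold different in any comparison, the leading isoform of each family, and Hif1a. Other pathway genes are named from 2-fold. Alternative settings were a pseudocount of 0.1 or 0.5, centring on the median, scaling to Actb, rescaling without abundant genes, other filters on low values (none, 5 FPKM), 1.5-fold and 4-fold rules, and an exact binomial test on recovered reads at an adjusted p of 0.05, which compares libraries and not conditions. Copies were sought with BLAST 2.17.0. Analyses ran in Python 3.11.15 with numpy 2.4.6, pandas 2.3.3 and scipy 1.17.1, and the counting and call steps were tested on simulated data. Raw reads, protein sequences and the authors' differential expression were not analysed here.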

Additional observations from a re-analysis of the deposited data

How the results depend on the processing

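Each condition had 1 library, so leaving out a replicate could not be done, and no paired analysis was possible because each condition has 1 library. Counting error is small for most members but limits Pfkm, Ldhb and Slc16a1. The counts of 2 members higher at 3Ws, against normal mice and against 2Ws, were the same with every pseudocount, scaling and filter on low values tried. A 1.5-fold rule gave 4 higher and 1 lower against normal mice and 8 higher and 1 lower against 2Ws, and a 4-fold rule gave 0 in each case. A pseudocount of 0.1 added 1 lower member in each comparison of 3Ws, Hk2 against normal mice and Pfkm against 2Ws. Relative to Actb, the members' median log2 ratio at 2Ws against normal mice was −0.0194 and that of all genes 0.08, and centring took the members' median at 3Ws against 2Ws to 0.58 and that of all genes to −0.05. Such scalings shift all genes nearly alike. The cause was not tested. Sides of 1 changed on scaling at 3Ws against normal mice for Ldhb, Egln1, Gys1 and Ugp2, at 2Ws for Hk1, Hk3, Pfkfb3, Pfkfb4, Bnip3 and Egln3, and at 3Ws against 2Ws for Vegfa. Of 96 ratios of single members, 96 stayed within their interval with either pseudocount, while centring moved 48, Actb 34 and rescaling 22 beyond it.

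Counts over all genes depend more on the settings. At 2Ws against normal mice 145 genes were higher and 137 lower, at 3Ws 289 and 876, and against 2Ws 222 and 820. A pseudocount of 0.1 gave 275 and 263, 459 and 1943, and 357 and 1763, and one of 0.5 gave 374 and 1371 at 3Ws against normal mice and 282 and 1249 against 2Ws. A filter at 5 FPKM gave 40 and 45, 180 and 499, and 137 and 431. The exact binomial test on recovered reads, which covers counting error only, gave 38 and 50, 182 and 676, and 143 and 619. The 1.5-fold rule gave 396 and 374, 714 and 2622, and 565 and 2307, and the 4-fold rule 12 and 15, 39 and 66, and 28 and 92. Centring gave 416 and 553 at 3Ws against normal mice, where the share of higher genes went from 24.8% to 42.9%, and 301 and 554 against 2Ws, from 21.3% to 35.2%.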
